A study of Rattus norvegicus with 2 samples.

Results

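Circular RNAs (circRNAs) are closed loops formed when the end of an exon is spliced back to the start of an earlier or the same exon. Here they are described for genes of vesicle coats, membrane tethers, membrane fusion, endosomal sorting and autophagy in a bone cancer pain series. The members are the circRNAs whose host gene name, standing alone in the table, begins with VPS, SNX, EXOC, SEC, STX, STXBP, VAMP, VTI1, TRAPPC, ATG, AP1 to AP5 or the COPI coat names, with STX1A left out. The rule used names and no measured values. It found 364 of 17260 circRNAs and 105 of 4987 host genes with a name standing alone. They took 1.90% of the circular junction reads in the bone cancer pain (BCP) library (95% exact binomial interval 1.83 to 1.97) and 1.98% in the control library (1.91 to 2.05), a ratio of 0.961 (0.913 to 1.01).

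Per the labels, the BCP group received Walker256 cells in the marrow cavity of the tibia. Walker256 is a rat mammary carcinoma line, and the cells came from ascites of other rats. Control rats had the same surgery with Walker256 cells that had been boiled for 20 minutes. Each group was made up of 3 rats, described in the growth protocol as SD rats, killed 21 days after the operation, and no ages are used here. There was 1 library per group, and the labels do not say whether the RNA of the 3 animals was pooled. With 1 library per group there is no replicate spread and no test between the groups, so every difference below compares 2 libraries. All intervals are 95% and cover counting error only, not spread between animals. Reads amplified by PCR are not independent molecules, so the intervals may be too narrow even for counting error.

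The labels name the material both as cancer cells from fluid and as cells of the spinal cord. Of 24 neuronal markers, 1 had a circRNA, NAV3, with 94 reads in the BCP library and 105 in the control library. Of 17 oligodendrocyte markers 2 had one (5 reads in the BCP library and 2 in the control library), of 10 astrocyte markers 1 (4 BCP reads and no control reads), of 12 microglia and macrophage markers none, and of 10 epithelial and carcinoma markers 3 (78 BCP and 96 control reads). The last 3 were TOP2A (41 BCP and 60 control reads), ERBB2 (35 and 36) and MKI67 (2 and none). RBFOX3, MOG and GFAP were among those with none, as were EPCAM, KRT8, KRT18, KRT19, CDH1, MUC1 and ESR1. The part of these markers in the results below was not tested. The identifiers in the table were human: 5 member circRNAs lay on chromosomes 21 or 22, which are not rat chromosomes (rat gene table of assembly GRCr8). A rat gene shared its name with 102 of the member genes, and 2 of these sat on the same chromosome number (1.96%, 0.238 to 6.90). Symbols and positions below are those of the table, which names no genome build, and exon and intron annotation was not used.

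Cargo leaves one membrane compartment in a vesicle shaped by a coat, such as COPII at the endoplasmic reticulum, COPI at the Golgi and clathrin with its AP adaptors at the Golgi, endosomes and cell surface. Tethers such as the exocyst, TRAPP and HOPS catch the vesicle at its target, and SNARE proteins then fuse the membranes. Sorting nexins and retromer return cargo from endosomes, ESCRT complexes bud membrane into them, and ATG proteins build the autophagosome that carries cytoplasm to the lysosome. A circRNA takes exons of such a gene out of the linear transcript, and its junction reads measure neither the linear mRNA nor the protein. In bulk RNA, fewer cells of a type and less of the RNA per cell cannot be told apart.

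Most of the member genes lay within 2-fold. Of those past it more were lower than higher in the BCP library, by a margin that shrank over circRNAs listed in both libraries. A ratio sets the BCP share of reads over the control share. The BCP library held 151685 circular junction reads and the control library 159941, so equal reads give a ratio of 1.05. A gene or circRNA was counted as higher or lower at 2-fold, with 0.5 reads added to each library and at least 10 reads over both. Of 105 host genes, 74 had 10 or more reads. Of these, 3 were higher, 14 lower and 57 between, beside 13.3% higher and 14.2% lower over all 3034 host genes with that many reads. In shares, that was 4.05% of the 74 member genes higher and 18.9% lower. The members' median log2 ratio was -0.31, beside -0.03 over all host genes. When the interval also had to exclude 1, 2 were higher and 9 lower, with 9.20% and 9.46% over all host genes. Over circRNAs listed in both libraries only, 4 were higher and 6 lower of 62. The shares over all host genes were not computed under that restriction. The other 31 genes had fewer than 10 reads. Of all 105, 11 were listed for the BCP library alone and 14 for the control library alone.

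**Figure D1:**
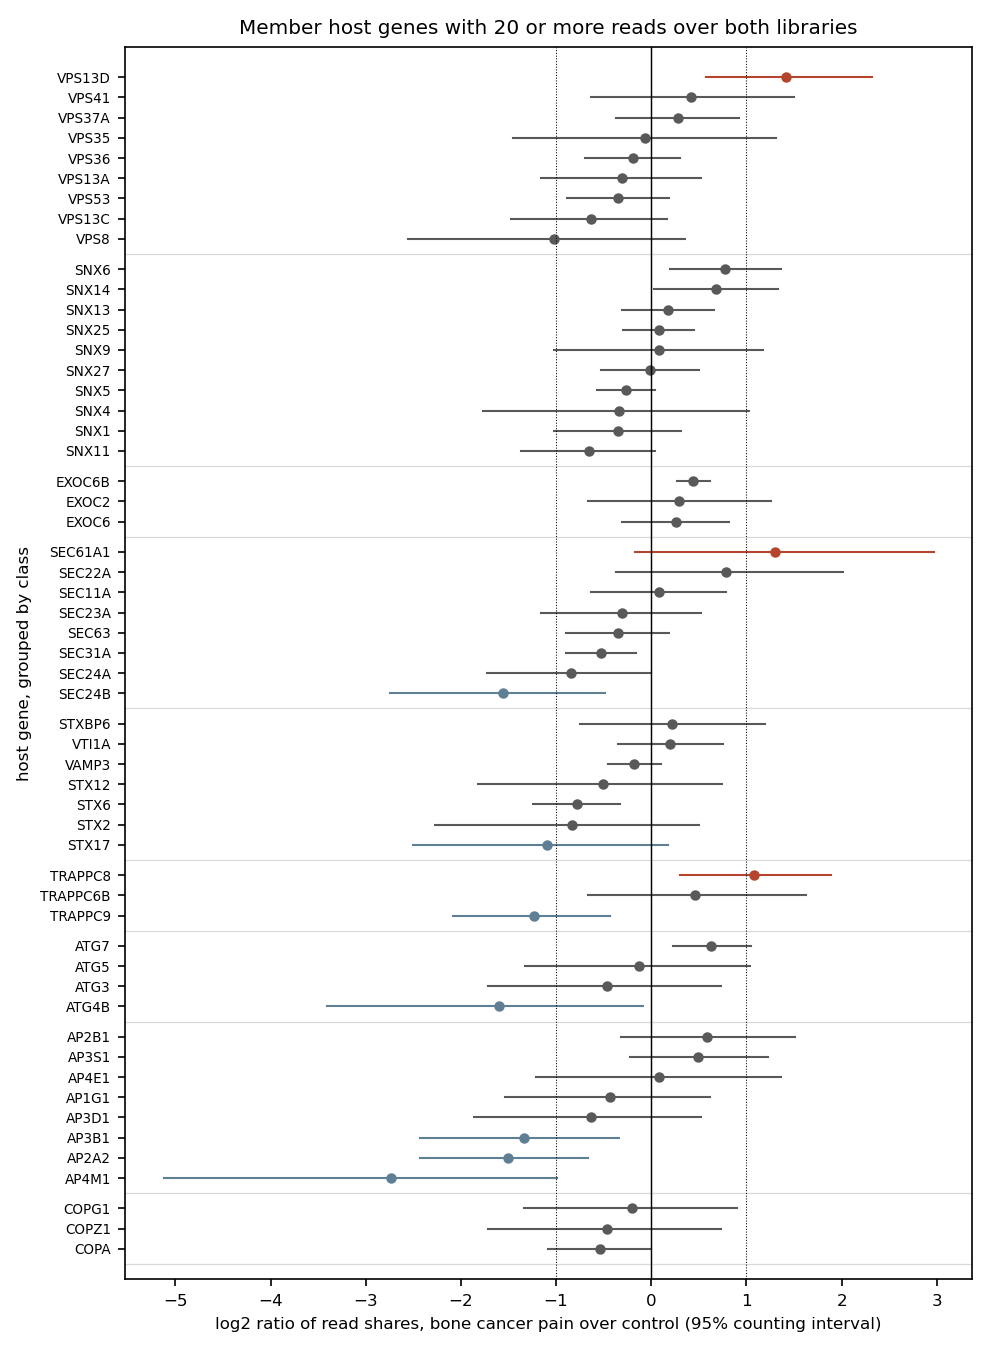
Log2 ratio of the read share in the BCP library over the control library for the 55 member host genes with 20 or more reads and a circRNA listed in both libraries, grouped by class from VPS at the top to COPI at the bottom. Bars are 95% counting intervals, dotted lines mark 2-fold, and red and blue mark genes counted as higher and lower. VPS13D, SEC61A1 and TRAPPC8 lie past 2-fold on the right, and AP4M1 lies farthest to the left at a ratio of 0.151.

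By class, the exocyst had more reads in the BCP library and the AP adaptors and SEC genes had fewer. In RPM, the reads scaled to a common library size, the exocyst genes summed to 4714 RPM in the BCP library and 3589 RPM in the control library (ratio 1.31, 1.18 to 1.47). The AP adaptors summed to 1055 RPM in the BCP library and 1601 RPM in the control library (0.659, 0.537 to 0.806). The SEC genes had 1984 RPM in the BCP library and 2570 RPM in the control library (0.772, 0.663 to 0.898). The SNARE genes with their binding proteins had 2532 RPM in the BCP library and 3164 RPM in the control library (0.800, 0.699 to 0.916). For VPS genes (0.977, 0.835 to 1.14), sorting nexins (1.01, 0.911 to 1.13), TRAPP (0.913, 0.674 to 1.24), ATG genes (1.09, 0.871 to 1.36) and COPI (0.757, 0.570 to 1.00) the interval held 1. Single genes carried several of these sums: EXOC6B held 83.9% of the exocyst reads, ATG7 63.4% of the ATG reads, COPA 58.2% of the COPI reads and VAMP3 48.8% of the SNARE reads. Without EXOC6B the exocyst ratio was 1.11 (0.835 to 1.47), and without ATG7 the ATG ratio was 0.581 (0.391 to 0.854).

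**Figure D2:**
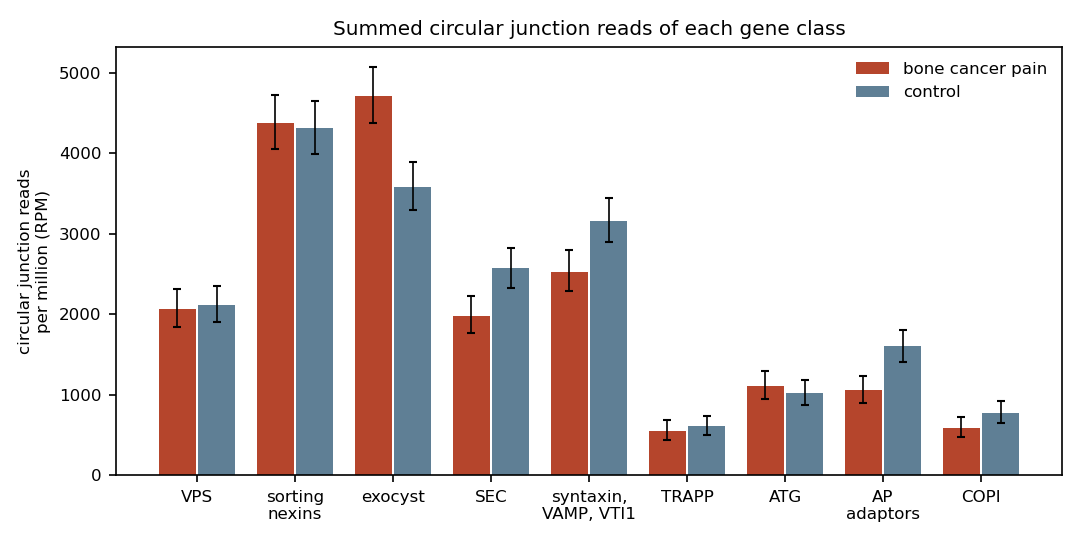
Summed circular junction reads in RPM of the 9 gene classes in the BCP library (left bar) and the control library (right bar), with 95% exact binomial intervals for counting error. The bars of the exocyst are highest in the BCP library at 4714 RPM, and the AP adaptor bars stand at 1055 RPM in BCP and 1601 RPM in control.

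Among the coats, the AP adaptors were the class with the most lower genes. AP complexes are heterotetramers that pick cargo into vesicles. Of 14 AP genes, 13 had 10 or more reads. None was higher, 6 were lower and 7 were between, with a median log2 ratio of -0.88, beside 13.3% higher and 14.2% lower over all host genes. AP2A2, an alpha subunit of the endocytic adaptor AP-2, had 16 reads in the BCP library and 48 in the control library (ratio 0.351, 0.186 to 0.630). AP3B1, a beta subunit of AP-3, which sorts cargo to lysosome-related organelles, had 12 BCP and 32 control reads (0.395, 0.185 to 0.789). AP4M1, the mu subunit of the Golgi adaptor AP-4, had 3 BCP and 21 control reads (0.151, 0.0288 to 0.504). These genes belong to separate complexes. Each met the naming rule as a gene counted as lower, and no AP gene was counted as higher. Their common direction thus followed from how they were chosen and does not show that the complexes changed together. With circRNAs of the catalogue circBase only, AP3B1 was within 2-fold, at 10 BCP and 16 control reads (0.659, 0.267 to 1.54). Over circRNAs listed in both libraries, AP4M1 had 3 BCP and 11 control reads (0.288, 0.0515 to 1.09), an interval that held 1, and so did that of AP3B1 (0.444, 0.168 to 1.06).

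The other lower AP genes had under 20 reads and were named after their values were seen. AP1S3, an AP-1 sigma subunit, had 4 reads in the BCP library and 11 in the control library, and AP1B1, a beta subunit, had 2 BCP and 8 control reads. AP2M1, the mu subunit that reads the tyrosine sorting signal, had none listed in the BCP library and 14 in the control library, spread over 4 circRNAs. The remaining genes were not all on that side. AP3S1, the AP-3 sigma subunit with the most reads of the class, had 40 BCP and 30 control reads (1.41, 0.854 to 2.34), and AP2B1, the AP-2 beta subunit, had 27 BCP and 19 control reads (1.5, 0.803 to 2.85). Over circRNAs listed in both libraries AP2B1 had 12 BCP and 16 control reads (0.791, 0.341 to 1.78), and without its most abundant circRNA it had 21 BCP and 6 control reads (3.69, 1.44 to 11.2). Summed by complex, the ratio was 0.541 for AP-1 (0.299 to 0.950), 0.554 for AP-2 (0.387 to 0.786), 0.830 for AP-3 (0.587 to 1.17) and 0.685 for AP-4 (0.402 to 1.15). With 1 gene left out in turn, AP-1 ran from 0.333, without AP1G1, to 0.612 (0.323 to 1.13), without AP1B1. AP-2 ran from 0.324, without AP2B1, to 0.753 (0.474 to 1.19), without AP2A2. The intervals of both upper ratios held 1. Leaving out 1 gene at a time moved the class ratio between 0.560, without AP3S1, and 0.730 (0.586 to 0.907), without AP2A2. This grouping by complex, here and below, was made after the values were seen.

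COPII genes summed to fewer reads in the BCP library, while the interval of the translocon genes, which also carry SEC names, held 1. The 7 genes of the COPII coat and its partners summed to 166 reads in the BCP library and 275 in the control library (ratio 0.636, 0.522 to 0.775). Leaving out 1 gene at a time gave ratios from 0.555, without SEC31A, to 0.674, without SEC24B. SEC31A, which forms the outer cage, had 106 BCP and 161 control reads (0.694, 0.538 to 0.893), and without its most abundant circRNA 78 BCP and 91 control reads (0.904, 0.659 to 1.24). SEC24B, a cargo-binding subunit of the inner layer, had 10 BCP and 31 control reads (0.340, 0.149 to 0.712), and without its most abundant circRNA 8 BCP and 14 control reads (0.603, 0.219 to 1.54). Its paralog SEC24A had 19 BCP and 36 control reads (0.556, 0.302 to 0.996). Of its circRNAs, 2 were listed in both libraries: hsa_circ_0073992 with 16 BCP and 7 control reads, and hsa_circ_0073983 with 3 in each. The lower sum of SEC24A thus lay on forms listed for the control library alone. The inner-layer subunit SEC23A had 23 BCP and 30 control reads (0.808, 0.448 to 1.44). Both SEC24A and SEC23A were named after their values were seen. SEC23B had 3 BCP and 9 control reads with no circRNA listed in both libraries, and SEC23IP no BCP and 8 control reads. SEC16A, which organises the exit sites, had 5 reads in the BCP library and none listed in the control library.

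The translocon and signal peptidase genes, which move new proteins into the endoplasmic reticulum and trim them, are not coat genes. They summed to 108 reads in the BCP library and 120 in the control library (0.949, 0.725 to 1.24). SEC61A1, the channel subunit, had 14 BCP and 6 control reads (2.46, 0.888 to 7.81) and was counted as higher, with an interval that held 1. SEC63, a channel partner, had 52 BCP and 70 control reads (0.783, 0.536 to 1.14), and SEC11A, a catalytic subunit of signal peptidase, had 36 reads in each library (1.05, 0.646 to 1.72).

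In the COPI coat, 5 of 6 genes had 10 or more reads. None was higher and 1 was lower, beside 13.3% higher and 14.2% lower over all host genes. COPA, the alpha subunit, had 49 reads in the BCP library and 75 in the control library (0.689, 0.471 to 1.00). COPG1, the gamma subunit, had 14 BCP and 17 control reads (0.868, 0.396 to 1.87), and COPZ1, a zeta subunit, had 11 BCP and 16 control reads (0.725, 0.304 to 1.66). The gene counted as lower was the other zeta subunit, COPZ2, with 3 BCP and 8 control reads (0.395, 0.0676 to 1.65).

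**Figure D3:**
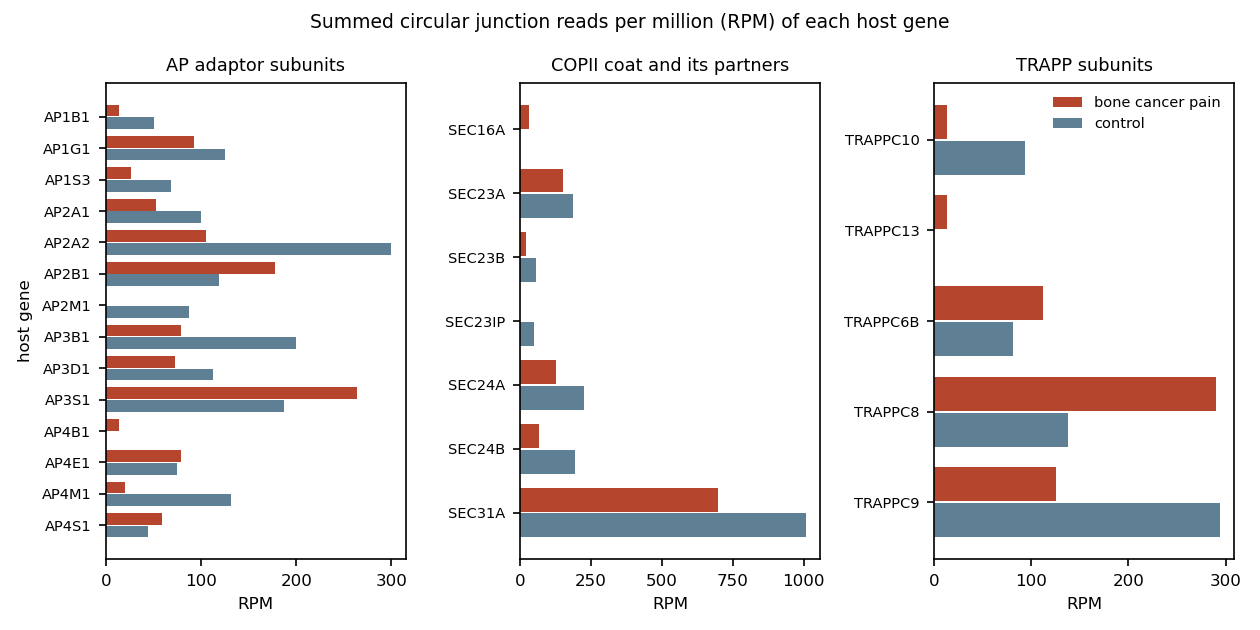
Summed circular junction reads in RPM of each AP adaptor gene, each gene of the COPII coat and its partners and each TRAPP gene, with the BCP library above the control library in each pair of bars. AP2A2 stands at 16 reads in BCP and 48 in control, the longest control bar of the AP genes. TRAPPC8 and TRAPPC9 differ in opposite directions.

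Among the tethers, EXOC6B carried most of the exocyst reads, and the TRAPP genes differed in opposite directions. The exocyst ties secretory vesicles to the plasma membrane. EXOC6B, a paralog of the subunit EXOC6, had 609 reads in the BCP library and 473 in the control library (1.36, 1.20 to 1.53), the most of any member gene. Without its most abundant circRNA it had 242 BCP and 220 control reads (1.16, 0.962 to 1.40), an interval that held 1. EXOC6 had 60 BCP and 53 control reads (1.19, 0.811 to 1.76), or 22 BCP and 8 control reads without its most abundant circRNA (2.90, 1.24 to 7.53). The subunit EXOC2 had 22 BCP and 19 control reads (1.22, 0.631 to 2.39). EXOC5 was the 1 exocyst gene counted as lower among 6 with 10 or more reads, beside 14.2% over all host genes. It had 3 BCP and 13 control reads on 4 circRNAs of which none was listed in both libraries. Its pseudogene EXOC5P1 had no BCP and 3 control reads. Whether reads were split between the gene and its pseudogene was not tested.

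TRAPP complexes activate Rab GTPases at the Golgi and in autophagy. TRAPPC8, a subunit specific to TRAPPIII, had 44 reads in the BCP library and 22 in the control library (2.11, 1.24 to 3.69). TRAPPC9, a subunit of TRAPPII, had 19 BCP and 47 control reads (0.426, 0.236 to 0.740). The other TRAPPII subunit measured, TRAPPC10, had 2 BCP and 15 control reads, with no circRNA listed in both libraries. TRAPPC6B, a core subunit, had 17 BCP and 13 control reads (1.38, 0.631 to 3.09). Both TRAPPC8 and TRAPPC9 lost the 2-fold difference over circRNAs listed in both libraries. TRAPPC8 then had 26 BCP and 19 control reads (1.44, 0.768 to 2.76), and TRAPPC9 had 16 BCP and 20 control reads (0.844, 0.409 to 1.71). Without TRAPPC9 the class ratio was 1.37 (0.934 to 2.02), and without TRAPPC8 it was 0.562 (0.373 to 0.836).

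Endosomal tethers had few reads. VPS53, shared by the GARP and EARP complexes that act at the trans-Golgi network and at recycling endosomes, had 53 reads in the BCP library and 71 in the control library (0.787, 0.541 to 1.14). The HOPS and CORVET genes VPS41, VPS8, VPS16 and VPS18 together had 30 BCP and 32 control reads (0.989, 0.580 to 1.68).

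Of 9 SNARE genes with 10 or more reads, 7 had log2 ratios below 0, a count not made over all host genes. The class median log2 ratio was -0.49, beside -0.03 over all host genes. STX6 had the largest read difference. VAMP3, a SNARE of recycling endosomes, had all its reads on 1 circRNA, with 198 in the BCP library and 236 in the control library (0.885, 0.729 to 1.07). STX6, a syntaxin of the trans-Golgi network and endosomes, had 64 BCP and 116 control reads (0.582, 0.422 to 0.796). VTI1A, which pairs with it in the same compartments, had 61 BCP and 56 control reads (1.15, 0.786 to 1.68). STX17, the SNARE that fuses autophagosomes with lysosomes, had 8 BCP and 18 control reads (0.469, 0.176 to 1.13). Over circRNAs listed in both libraries it had 8 BCP and 4 control reads (2.11, 0.565 to 9.57), so its direction rested on forms listed for the control library alone. STX17 was the only gene of this class counted as lower among 9 with 10 or more reads, and none was higher. That was 11.1% lower, near the 14.2% over all host genes, of which 13.3% were higher. Without STX6 the class ratio was 0.865, with an interval of 0.744 to 1.01 that held 1.

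Sorting nexins did not pass 2-fold as genes, while their single circRNAs passed it in both directions. None of the 12 sorting nexin genes with 10 or more reads was higher or lower, beside the 13.3% and 14.2% over all host genes. SNX5, a membrane-bending partner of retromer, had 165 reads in the BCP library and 209 in the control library (0.832, 0.675 to 1.03). SNX6, another such partner, had 68 BCP and 42 control reads (1.71, 1.15 to 2.57), and SNX14, which tethers the endoplasmic reticulum to lipid droplets, had 53 BCP and 35 control reads (1.60, 1.02 to 2.52). Both were higher by less than 2-fold, with intervals above 1, and were named after their values were seen. Of the SNX6 forms, 4 were listed in both libraries. Their BCP and control reads were 9 and 25, 13 and 3, 13 and 2, and 4 and 7. The excess of SNX6 in the BCP library thus lay mostly on forms listed for that library alone. SNX25 had 125 in each library (1.05, 0.816 to 1.36), and SNX13 had 77 BCP and 72 control reads (1.13, 0.807 to 1.58). The 7 genes of retromer and its sorting nexins, which carry receptors from endosomes back to the Golgi or cell surface, summed to 354 BCP and 385 control reads (0.970, 0.837 to 1.12). Of 26 sorting nexin circRNAs with 10 or more reads, 7 were higher and 3 lower, beside 17.3% higher and 17.0% lower over all 5415 circRNAs with that many reads. Genes with both higher and lower circRNAs were SNX5, SNX6 and SNX25.

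The remaining VPS genes act in membrane budding and lipid transfer. VPS36, of ESCRT-II, had 64 reads in the BCP library and 77 in the control library (0.876, 0.619 to 1.24), and VPS37A, of ESCRT-I, had 46 BCP and 40 control reads (1.21, 0.776 to 1.90). VPS13D, a bridge-like lipid transfer protein known for roles at mitochondria and peroxisomes, had 43 BCP and 17 control reads (2.67, 1.49 to 4.99), the highest ratio of any member gene with 20 or more reads and a circRNA listed in both libraries. Its paralogs, named after their values were seen, were VPS13A with 23 BCP and 30 control reads, VPS13C with 22 BCP and 36 control reads, and VPS13B with 12 BCP and 8 control reads. The 4 genes together had 100 BCP and 91 control reads (1.16, 0.864 to 1.56). VPS72, which the name rule also takes, encodes a chromatin protein and had 3 BCP and 2 control reads.

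Of the 10 autophagy genes, ATG7 had the most reads and was higher in the BCP library by less than 2-fold, while the other 9 together had 43 reads there and 78 in the control library. ATG7, the E1-like enzyme that starts both ubiquitin-like conjugation reactions of autophagy, had 125 reads in the BCP library and 85 in the control library (1.55, 1.17 to 2.07). ATG3, which transfers LC3 to lipid, had 11 BCP and 16 control reads (0.725, 0.304 to 1.66), and ATG5, part of the ligase-like complex, had 13 BCP and 15 control reads (0.914, 0.400 to 2.06). ATG4B, the protease that processes LC3, had 5 BCP and 16 control reads (0.330, 0.0944 to 0.941) and was counted as lower. Over circRNAs listed in both libraries ATG4B was within 2-fold, with 5 BCP and 9 control reads (0.586, 0.154 to 1.95). Below 10 reads, and named after their values were seen, ATG14 had no BCP and 9 control reads, and ATG16L1 no BCP and 7 control reads.

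The most abundant member circRNAs stayed within 2-fold, apart from those of STX6 and SEC31A. In all, 119 of 364 had 10 or more reads, of which 14 were higher and 23 lower. That was 11.8% and 19.3%, beside 17.3% and 17.0% over all circRNAs. When the interval also had to exclude 1, 9 were higher and 12 lower, beside 10.7% and 10.2% over all circRNAs. The 10 with the most reads took 38.1% of member reads in the BCP library and 37.9% in the control library. First was hsa_circ_0001030 of EXOC6B (chromosome 2, 72958136 to 72960247), with 367 BCP and 253 control reads (1.53, 1.30 to 1.8). Next were hsa_circ_0006354, the VAMP3 circRNA given above (chromosome 1, 7837220 to 7838229), and a longer form of EXOC6B, hsa_circ_0009043 (72945232 to 72960247), with 152 BCP and 120 control reads (1.34, 1.04 to 1.71). A further form of EXOC6B, without a circBase identifier (72692289 to 72707879), had 54 BCP and 49 control reads (1.16, 0.775 to 1.75). CircBase is a catalogue of published circRNAs.

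The abundant forms that were lower in the BCP library came from several classes. Of SNX5, hsa_circ_0004816 (chromosome 20, 17936009 to 17937681) had 74 reads in the BCP library and 144 in the control library (0.542, 0.404 to 0.722). Of STX6, hsa_circ_0007905 (chromosome 1, 180953813 to 180962561) had 44 BCP and 105 control reads (0.442, 0.303 to 0.634). Of COPA, hsa_circ_0008661 (chromosome 1, 160293221 to 160302347) had 39 BCP and 71 control reads (0.579, 0.381 to 0.868). Of SEC31A, hsa_circ_0006618 (chromosome 4, 83799883 to 83803093) had 28 BCP and 70 control reads (0.422, 0.262 to 0.662). The other forms of STX6 together had 20 BCP and 11 control reads (1.92, 0.876 to 4.43), so that gene's lower sum lay on 1 circRNA. Likewise, the other forms of SNX5 had 91 BCP and 65 control reads (1.48, 1.06 to 2.06), and those of COPA had 10 BCP and 4 control reads (2.64, 0.760 to 11.5). Of SNX27, hsa_circ_0000130 (chromosome 1, 151611364 to 151611595) had 39 BCP and 58 control reads (0.709, 0.460 to 1.08), and of SNX25, hsa_circ_0004874 (chromosome 4, 186168448 to 186188309) had 102 BCP and 92 control reads (1.17, 0.873 to 1.57).

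Among circRNAs with 20 or more reads, the lowest was hsa_circ_0004380 of TRAPPC9 (chromosome 8, 141407719 to 141415797), with none listed for BCP and 20 control reads. It was followed by hsa_circ_0020749 of AP2A2 (chromosome 11, 1000432 to 1003804), with 5 reads in the BCP library and 38 in the control library (0.139, 0.0426 to 0.353). The other 4 circRNAs of AP2A2 together had 11 BCP and 10 control reads (1.16, 0.447 to 3.05). Then came a form of SNX6 without an identifier (chromosome 14, 35036892 to 35037219), with 9 BCP and 25 control reads (0.380, 0.156 to 0.841), and the SEC31A and STX6 forms above. At the other end, a form of SNX14 without an identifier (chromosome 6, 86267694 to 86275137) had 19 BCP and 3 control reads (6.68, 1.97 to 35.2). Next were hsa_circ_0008210 of ATG7 (chromosome 3, 11399892 to 11468400) with 44 BCP and 15 control reads (3.09, 1.69 to 5.98) and hsa_circ_0031408 of STXBP6, a syntaxin-binding protein (chromosome 14, 25443871 to 25444056), with 21 BCP and 8 control reads (2.77, 1.18 to 7.23). Last were hsa_circ_0006704 of SNX5 (26 BCP and 11 control reads; 2.49, 1.19 to 5.59) and hsa_circ_0005066 of SNX25 (14 BCP and 6 control reads; 2.46, 0.888 to 7.81).

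A member circRNA with 10 or more reads was listed for 1 library alone in 6 of 119 cases, beside 5.63% of all such circRNAs. Of these, 5 were listed for the control library alone. Besides the TRAPPC9 form these were hsa_circ_0051963 of AP2A1 with 16 reads, hsa_circ_0005115 of SEC63 with 14, hsa_circ_0003180 of SEC24A with 13 and hsa_circ_0004825 of STX17 with 11. The 1 listed for the BCP library alone was hsa_circ_0031607 of SNX6, with 17 reads. No fold is given for them: no circRNA was listed with under 2 reads, so 1 read may have gone unlisted.

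**Figure D4:**
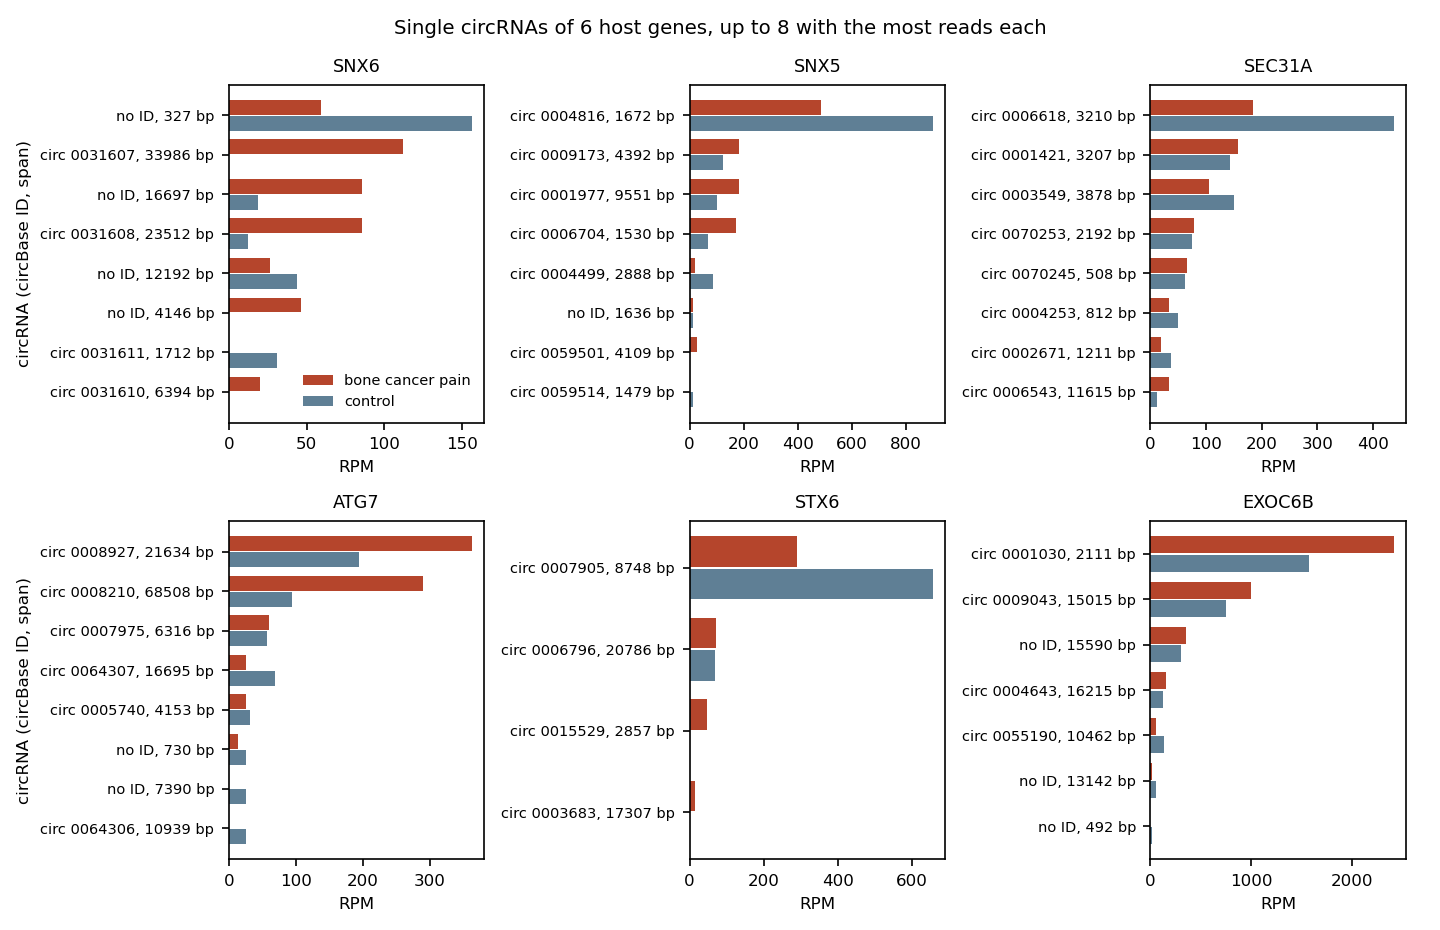
Circular junction reads in RPM of single circRNAs of SNX6, SNX5, SEC31A, ATG7, STX6 and EXOC6B, up to 8 with the most reads each, with the BCP library above the control library. Labels give the digits of the circBase identifier, or no ID, and the span between the ends. The top form of SNX6 has the shorter bar in BCP, at 9 reads against 25 in control, while the forms of 33986, 16697 and 23512 bp have the longer bar in BCP.

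There were 13 genes with 3 or more forms on a shared end, at least 20 reads on these and a ratio for both sets. In 9 of them, the forms with the shared end and the other forms lay on opposite sides of 1. This count was not made over all host genes, and sets with few reads can fall on either side by counting error. In SNX6, 8 of the 9 circRNAs shared the end at position 35078948 and had 59 reads in the BCP library and 17 in the control library (3.66, 2.10 to 6.70). The remaining form, given above, was at 0.380. In ATG7, the 3 circRNAs that start at 11399892 had 108 BCP and 55 control reads (2.07, 1.48 to 2.92), while the other 8 had 17 BCP and 30 control reads (0.598, 0.309 to 1.12). In SNX14, the 4 that start at 86267694 had 49 BCP and 25 control reads (2.07, 1.25 to 3.49), and the other 3 had 4 BCP and 10 control reads (0.422, 0.0966 to 1.46). In SNX27, a retromer cargo adaptor, the 3 that start at 151611364 had 45 BCP and 61 control reads (0.778, 0.517 to 1.16), while the other 2 had 19 BCP and 7 control reads (2.86, 1.15 to 8.06). These 4 of the 9 were picked after their values were seen, and the others were EXOC6, SEC23A, SEC24A, SNX25 and SNX5. In SEC31A the 3 forms that start at 83799883 (64 BCP and 105 control reads; 0.643, 0.463 to 0.885) and the other 7 (42 BCP and 56 control reads; 0.791, 0.517 to 1.20) lay on the same side.

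SEC31A held a pair of junctions only 3 bases apart. The form ending at 83803093, hsa_circ_0006618, had 28 reads in the BCP library and 70 in the control library. The form with the same start that ends at 83803090, hsa_circ_0001421, had 24 BCP and 23 control reads (1.10, 0.595 to 2.04). Such pairs within 10 bases were also listed for COPZ1 and SNX11, where the minor form had at most 3 reads in a library.

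The share of a gene's reads on its leading circRNA, the one with the most reads over both libraries, was compared for 53 genes with 20 or more reads and several circRNAs. The median share was 57.1% in the BCP library and 56.3% in the control library, and it was higher in the BCP library for 25 genes and lower for 28. For 11 of the 53 genes the exact binomial intervals of the libraries did not overlap. This count was not made over all host genes, so whether it is particular to the members is not known. In SNX5 the leading form took 44.8% of 165 reads in the BCP library (37.1 to 52.8) and 68.9% of 209 in the control library (62.1 to 75.1). In STX6 it took 68.8% in BCP (55.9 to 79.8) and 90.5% in control (83.7 to 95.2), and in SNX6 13.2% in BCP (6.23 to 23.6) and 59.5% in control (43.3 to 74.4). SEC24A and STX17 differed the other way: 84.2% in BCP (60.4 to 96.6) against 19.4% in control (8.19 to 36.0) for SEC24A, and 8 of 8 reads in BCP against 4 of 18 in control for STX17. Of the 18 control reads of STX17, 11 were on the form listed for the control library alone. Because the leading form is chosen over both libraries, a form listed in 1 library can lead.

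**Figure D5:**
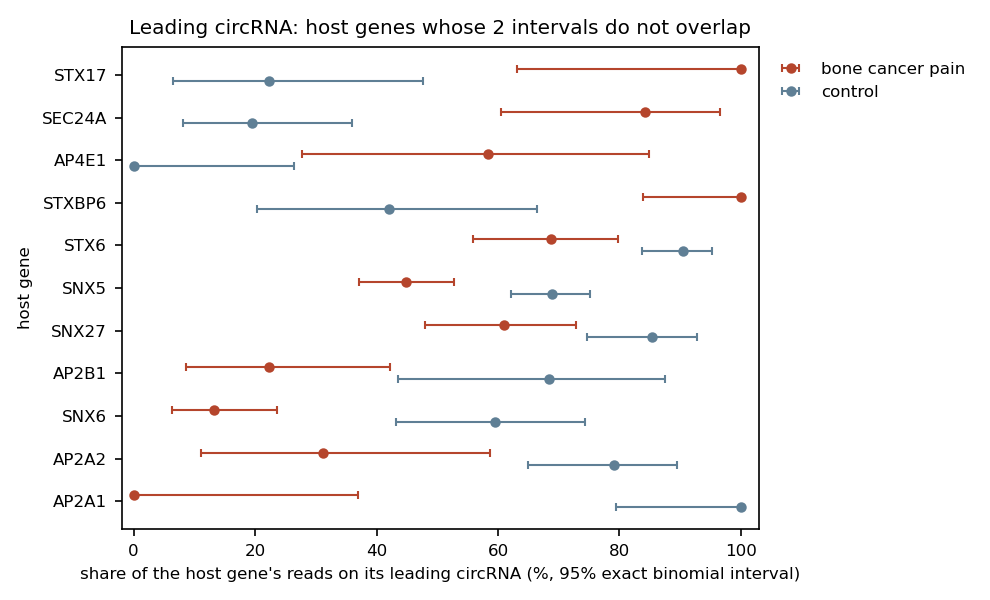
Share of a host gene's circular junction reads on its leading circRNA (percent) in the BCP library and the control library for the 11 host genes whose 95% exact binomial intervals did not overlap. Points are shares and bars are intervals for counting error. The BCP share is higher for the upper 4 genes, from STX17 to STXBP6, and lower for the other 7, among them SNX5 at 44.8% in BCP and 68.9% in control.

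In features that the rule did not use, the members were set beside the other 14729 circRNAs with 1 host gene. Of the members, 64.3% had a circBase identifier (59.1 to 69.2), and of the others 58.5% (57.7 to 59.3). Both libraries listed 43.1% of the members (38.0 to 48.4) and 43.9% of the others (43.1 to 44.7). Members spanned a median of 6355 bp from end to end, and the others 5795 bp. Members had 3.47 circRNAs per gene and the others 3.02. An end shared with another circRNA of the same gene was found for 59.3% of members (54.1 to 64.4) and 61.7% of the others (60.9 to 62.5). Among classes, the share with such an end ran from 20.0% in COPI (2.52 to 55.6) to 87.9% in ATG genes (71.8 to 96.6). The 90 members listed for the BCP library alone held 314 reads, and the 117 listed for the control library alone held 435.

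Other genes of these pathways, which the name rule does not take, were listed with earlier results known. Their counts stand beside 13.3% higher and 14.2% lower over all host genes, and several, such as 3 of 16, 2 of 14 and 1 of 8, lie near those shares. Of 18 clathrin and other coat genes with 10 or more reads, 4 were higher and 1 lower (median log2 ratio -0.03). EPN2, an endocytic adaptor, had 22 reads in the BCP library and 6 in the control library (3.87, 1.52 to 11.7), and TMED2, a cargo receptor of COPI and COPII vesicles, had 59 BCP and 97 control reads (0.641, 0.456 to 0.895). CLTA, a clathrin light chain, had 71 BCP and 23 control reads (3.25, 2.01 to 5.46), and ARCN1, the delta subunit of COPI, had 18 BCP and 5 control reads (3.80, 1.36 to 13.1), both named after their values were seen.

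Of 16 further tether genes with 10 or more reads, 3 were higher and 2 lower, with a median of 0.31. GOLGA4, a Golgi golgin, had 19 reads in the BCP library and 3 in the control library with no circRNA listed in both, and HPS4, part of an exchange factor for lysosome-related organelles, had 18 BCP and 40 control reads (0.474, 0.256 to 0.847). Of 6 further SNARE and fusion genes, 2 were higher and none lower (median 0.52). Those with 20 or more reads ran from UNC13B, a vesicle priming factor (41 BCP and 30 control reads; 1.44, 0.878 to 2.39), to GOSR1, a Golgi SNARE (25 BCP and 52 control reads; 0.507, 0.301 to 0.832). Of 8 further ESCRT and sorting genes 1 was higher and 1 lower (median -0.11), with CHMP5 at 30 BCP and 28 control reads and COMMD1 at 6 BCP and 15 control reads. Of 14 further autophagy genes 2 were higher and 2 lower (median 0.03). TMEM41B, a scramblase of the endoplasmic reticulum, had 20 BCP and 5 control reads (4.22, 1.54 to 14.4), and WDFY3, a scaffold for aggregate clearance, had 37 BCP and 69 control reads (0.565, 0.369 to 0.855).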

How the data were processed

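RNA depleted of ribosomal RNA was treated with 16 units of RNase R, which degrades linear RNA, for 15 min at 37 °C, and strand-marked libraries were made, per the labels' protocols. The submitters' processing notes name CASAVA 1.8, BWA and rn6, with no role. The sources used here do not name the circRNA caller. Deposited values are headed TPM per the file headers but were used as RPM of circular junction reads: above the placeholder of 0.001, all (100%) were whole multiples of 1 step per library, within 0.001 reads, whatever the circRNA. Dividing by the step gave reads, at least 2 wherever listed. The placeholder was taken as 0.

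Host sums used circRNAs with 1 host name. Ratios have exact conditional binomial (Clopper-Pearson) intervals, and genes without a circRNA in both have no ratio. Such calls are sizes, not tests. Named by rule were genes counted as higher or lower with 20 or more reads and the 3 with the most reads in each class. So were the 10 most abundant circRNAs and those with 10 or more reads in 1 library alone. The 5 highest and 5 lowest circRNAs with 20 or more reads, and the highest and lowest gene of each outside list, completed the rule. Any other member or outside gene given was named after its values were seen, whether or not marked in place. Members and lists were chosen with earlier results of these data known. Calls were run on simulated counts that held counting error alone, with changes larger than 2-fold placed in genes or circRNAs with 20 or more reads. Spread between animals was not simulated, so this does not bear on how reliable the 2-fold calls from 10 reads are. CircRNAs on chromosome Y or of X-inactivation genes were left out. Tools were scipy 1.17.1, numpy 2.4.6, matplotlib 3.10.9, pandas 2.3.3 and Python 3.11.15.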

Additional observations from a re-analysis of the deposited data

How the results depend on the processing

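No paired analysis was possible because each group had 1 library. Of 74 genes, 3 were higher and 14 lower. With circRNAs listed in both libraries only, 4 were higher and 6 lower of 62. A minimum of 20 reads gave 3 higher and 7 lower of 57, and a minimum of 5 reads 8 higher and 20 lower of 89. Of the 74, 2 were higher and 9 lower with an interval excluding 1. At a ratio of 1.5, 9 of the 74 were higher and 23 lower. Of 119 circRNAs, 14 were higher and 23 lower. A minimum of 5 reads gave 32 higher and 49 lower of 193, and a minimum of 20 reads 6 higher and 6 lower of 60. Of the 119, 27 were higher and 39 lower at a ratio of 1.5, and 9 and 12 with an interval excluding 1. Apart from the setting with an interval excluding 1, shares over all genes or circRNAs were not computed for these alternatives. The ratio over all members (0.961) was 0.911 under median of ratios scaling, 0.911 without the circRNA with the most reads and 0.891 without EXOC6B. Without its most abundant circRNA, the ratio was 1.14 for sorting nexins (1.01 to 1.28) and 1.14 for the exocyst (0.979 to 1.33). Without its most abundant gene, the ratio was 1.11 for the exocyst, 0.562 for TRAPP and 0.581 for ATG genes. Without their leading circRNA, AP2A2 (1.16) and STX6 (1.92) turned to the other side of 1, as did 9 genes within 2-fold: SNX25 (0.735), EXOC2 (0.527), VPS36 (1.66), SNX5 (1.48), COPA (2.64), ATG5 (1.48), ATG3 (1.05), SEC11A (0.659) and TRAPPC6B (0.937). In all, 108 values for counts and class ratios stayed within 1.5 times the main count or inside the main interval. The causes were not tested. An alternative chosen after seeing the data added 22 circRNAs whose name field also holds small RNAs, with 83 reads in the BCP library and 41 in the control library (2.13, 1.45 to 3.18). Genes higher were then 4 and lower 15. At 10 reads, an interval spans many-fold, so differences under 2-fold were not detectable there, nor were some larger ones. AP1B1, with 2 BCP and 8 control reads, had a ratio of 0.264 (0.0273 to 1.32).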
